A study of Mus musculus with 6 samples.

Results

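The genes described here are 35 antiviral interferon-stimulated genes, taken by name from a fixed list that was drawn up with earlier results on these livers known. They were looked up in the gene counts of whole livers from 3 LPS-treated and 3 control mice, by Entrez identifier for 33 genes and by symbol for Isg15, whose identifier was shortened in the count tables. Of the 35 genes, 34 had a line among the 22488 lines of each table, and Mx2 was not analysed here. All 34 passed a filter on low counts that left 12078 genes for testing. Of them 33 were at the level of that filter (0.684 CPM, counts per 1000000 counts of a library) in all 3 control livers as well, and Epsti1 was not.

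All mice were male wild-type C57BL/6, 6 to 8 weeks old, and were fasted for 16 h. The LPS group (n = 3) was injected intraperitoneally with 6 mg/kg of lipopolysaccharide, a cell wall component of Gram-negative bacteria that is also called endotoxin. The control group (n = 3) was injected by the same route with HBSS, a salt solution, in a volume of 200 µl, although another label of these samples says that they had no treatment. How long after the injection the livers were taken is not given in the sources used here. Total counts ran from 11488525 to 15437785 in LPS livers and from 12577993 to 20282004 in control livers. Nothing beyond the labels says that the samples of a group came from separate mice, so p values reflect the spread among these samples alone.

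Interferons are secreted proteins that cells release on sensing microbial nucleic acid or endotoxin. Type I interferons bind the receptor IFNAR1-IFNAR2 and activate ISGF3, a transcription factor complex that binds a DNA element called ISRE, while interferon gamma acts through an element called GAS. The genes switched on in this way encode sensors of viral RNA, proteins that block viral translation and replication, the ubiquitin-like modifier ISG15 with its conjugating enzymes, and a series of ubiquitin ligases and ADP-ribosyltransferases. Toll-like receptor 4, the receptor of endotoxin, can reach the same genes through TRIF, TBK1 and IRF3, which induce interferon beta.

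The ISRE, the element that ISGF3 and IRF factors bind, was looked for in the sequence around the start sites. RefSeq promoter windows (GRCm38.p6, 250 bases before to 50 after a start site) were found for 28 of the 35 genes. The ISRE core, GAAA followed by any 2 bases and GAAA again, searched on both strands with overlapping matches kept, was present in 11 of these 28 genes (39.3%), against 382 of 9626 genes with a window that passed the filter on low counts (3.97%), 154 of the 2993 such genes that rose (5.15%) and 1079 of all 27025 genes with a window (3.99%). The GAS core TTCNNNGAA was present in 7 of the 28 (25.0%), against 8.38% of the filtered genes and 9.55% of all genes. A match describes the letters in the window and does not show binding. The window of Isg15 held 3 overlapping ISRE cores, and it is shown because Isg15 had the highest fold change of the 34 genes. Its 250 bases upstream of the start site (chr4:156200819-156201068, minus strand) are given with the merged cores in capitals.

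Isg15: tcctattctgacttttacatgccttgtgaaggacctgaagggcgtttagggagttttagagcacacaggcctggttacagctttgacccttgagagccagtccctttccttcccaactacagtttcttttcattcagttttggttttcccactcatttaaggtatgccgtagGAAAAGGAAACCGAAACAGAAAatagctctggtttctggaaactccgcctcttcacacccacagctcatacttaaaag

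The other 10 genes with an ISRE core are shown in order of falling log2 fold change, to set the same element beside very different responses. For each, the match farthest upstream is given with up to 10 bases on either side, read along the gene's own strand, with the core in capitals (in capitals that begin with TTTC the core is on the opposite strand).

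Ifit3: cagtggtaagTTTCACTTTCctcttctggt
Rsad2: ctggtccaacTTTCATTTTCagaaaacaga
Ifit1: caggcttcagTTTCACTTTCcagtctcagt
Trim30a: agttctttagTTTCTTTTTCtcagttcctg
Ifih1: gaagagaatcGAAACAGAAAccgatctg
Bst2: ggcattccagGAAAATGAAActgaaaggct
Trim21: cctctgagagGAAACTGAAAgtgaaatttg
Eif2ak2: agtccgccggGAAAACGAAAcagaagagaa
Ddx60: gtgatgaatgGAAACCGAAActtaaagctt
Ddx58: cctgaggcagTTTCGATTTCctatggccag

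These windows lie at chr19:34583363-34583392 (Ifit3, plus strand), chr12:26456553-26456582 (Rsad2, minus), chr19:34640775-34640804 (Ifit1, plus), chr7:104465210-104465239 (Trim30a, minus) and chr2:62646206-62646233 (Ifih1, minus). The others lie at chr8:71537583-71537612 (Bst2, minus), chr7:102565450-102565479 (Trim21, minus), chr17:78882535-78882564 (Eif2ak2, minus), chr8:61928024-61928053 (Ddx60, plus) and chr4:40239804-40239833 (Ddx58, minus). Relative to the start site the cores shown for Ifit3, Bst2, Rsad2, Ifit1, Ddx60 and Trim30a began at -156, -130, -120, -104, -53 and -36. Those of Ddx58, Trim21, Eif2ak2 and Ifih1 began downstream of it, at 3, 14, 19 and 33. Whether position went with fold change was not tested. Among the 11 genes with a core in the window the log2 fold change ran from 0.76 (Ddx58) to 6.29 (Isg15), with a median of 1.76. The 17 genes without one ran from -0.52 (Dtx3l) to 4.21 (Xaf1), with a median of 1.52. The 2 ranges overlapped over most of their length, and their difference was not tested. No window was found for 7 genes, among them Mx1 (log2 fold change 5.35). In 24 of the 28 genes with a window its end matched an annotated transcript.

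Most of these genes were higher in LPS livers. At an adjusted p below 0.05 in edgeR's quasi-likelihood test, adjusted over all 12078 genes, 29 of the 34 rose and 1, Dtx3l, fell, and 4 did not pass the threshold. The same rule called 31.3% of all tested genes higher and 31.0% lower. Of the 34 genes 26 rose at least 2-fold, against 16.0% of all tested genes, and 10 of these rose at least 8-fold, against 3.13% of all tested genes. The median log2 fold change (LPS minus control) was 1.72 over the 34 genes and 0.01 over all tested genes. The 3 LPS values lay above the 3 control values in 31 genes and below them in 1, where 34.0% and 33.4% of all tested genes did so, and 2 genes, Ddx60 and Epsti1, overlapped. Whole liver was measured, so more cells of a kind and more RNA per cell cannot be told apart. Since the list was drawn up with earlier results known, these counts are a description beside the background.

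**Figure D1:**
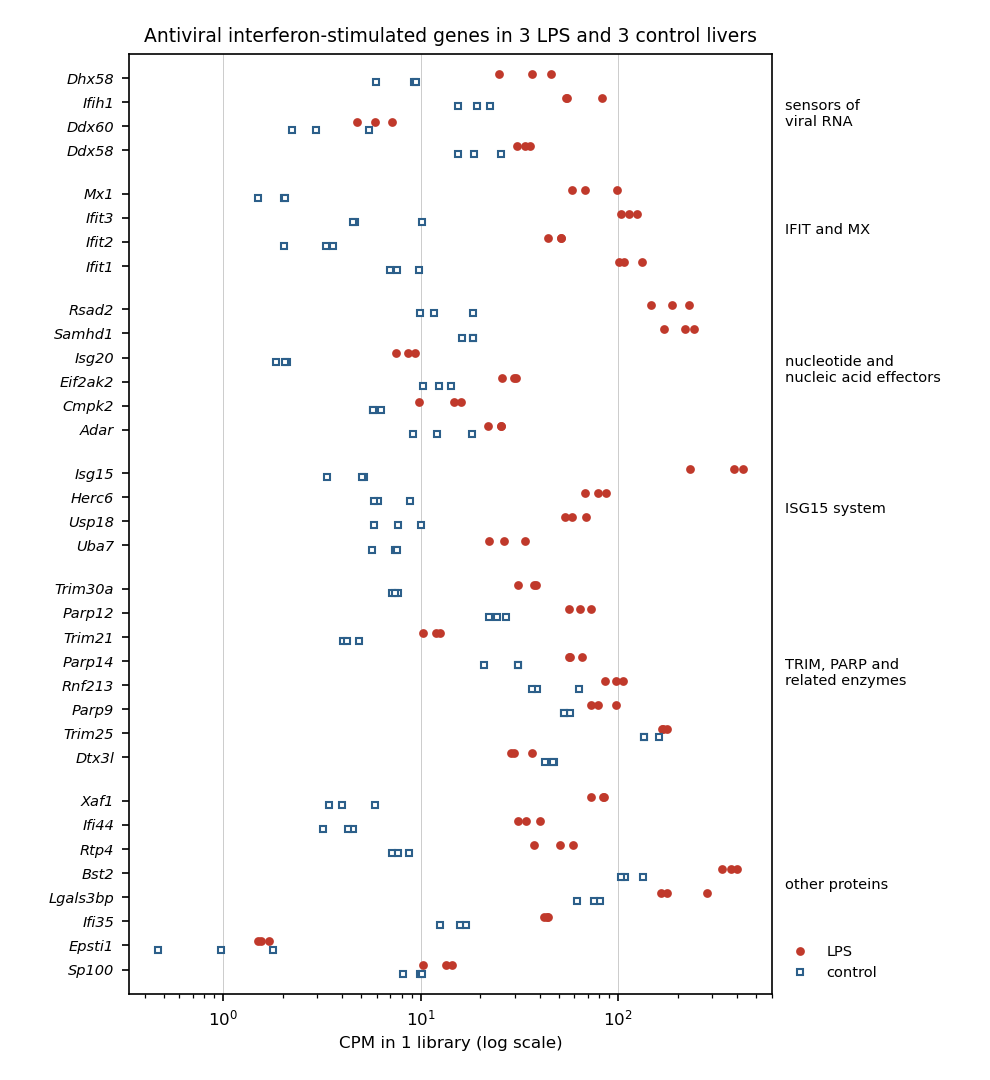
CPM of 34 antiviral genes in each of 3 LPS livers (filled circles) and 3 control livers (open squares), on a log axis, grouped by role and ordered within a role by fold change. LPS and control points are fully separated in 32 genes, LPS being the lower group only in Dtx3l, and they mix in Ddx60 and Epsti1.

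The IFIT and MX proteins are the classical effectors, and the 4 that were measured rose 14-fold to 40.8-fold. Mx1 (chromosome 16, 97447035 to 97462907) encodes a dynamin-like GTPase that traps incoming influenza ribonucleoproteins, and C57BL/6 mice carry an allele that gives no working protein. It had 68.0, 58.4 and 98.8 CPM in LPS livers, against 2.03, 1.51 and 2.05 CPM in control livers. The log2 fold change was 5.35 (SE 0.23, adjusted p = 4.90e-10). Every LPS liver was thus far above every control liver, and the highest LPS liver, replicate 3, stood apart from the other two.

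The 3 IFIT genes lie together on chromosome 19 and encode tetratricopeptide proteins that bind viral RNA or the translation factor eIF3. Ifit1 (34640871 to 34650009) had 131, 101 and 107 CPM in LPS livers, against 9.82, 7.0 and 7.56 CPM in control livers (log2 fold change 3.81, SE 0.17). Ifit2 (34550694 to 34576419) had 51.2, 44.2 and 51.5 CPM in LPS livers, against 3.58, 2.04 and 3.33 CPM in control livers (4.06, SE 0.20). Ifit3 (34583531 to 34588731) had 114, 104 and 125 CPM in LPS livers, against 10.1, 4.67 and 4.55 CPM in control livers (4.18, SE 0.25). In all 3 genes every LPS liver lay above every control liver, and control replicate 1 had the highest control value of each. Ifit3 has a close copy, Ifit3b, beside it, and the sources used here do not say how reads common to such copies were assigned, which leaves the split between them uncertain.

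Isg15 and the enzymes around it rose at each step of the cycle. Isg15 (chromosome 4, 156199424 to 156200818), the modifier itself, had 386, 232 and 428 CPM in LPS livers, against 5.14, 3.35 and 5.06 CPM in control livers. Its log2 fold change of 6.29 (SE 0.26, adjusted p = 3.21e-10), a 78.1-fold rise, ranked 79 of the 12078 genes tested. LPS replicate 2 was the lowest LPS liver, and it was still above every control liver. Uba7, the enzyme that activates ISG15, had 26.3, 22.2 and 33.9 CPM in LPS livers, against 7.40, 5.64 and 7.63 CPM in control livers (2.00, SE 0.20). Herc6, which in mice is the main ligase that attaches ISG15 to target proteins, had 86.8, 67.6 and 79.1 CPM in LPS livers, against 8.80, 6.08 and 5.77 CPM in control livers (3.51, SE 0.18). Usp18, the protease that removes ISG15 and that also blocks the type I interferon receptor, rose too. It had 58.4, 54.0 and 68.5 CPM in LPS livers, against 7.64, 5.79 and 10 CPM in control livers (2.96, SE 0.19). Ube2l6, the conjugating enzyme between Uba7 and Herc6, is not among the 35 genes and was named after its value was seen; it rose as well (2.08, SE 0.13).

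The 6 effectors that act on nucleotides or nucleic acids all rose, over a wide range. Rsad2 (viperin; chromosome 12, 26442746 to 26456452), which turns CTP into a chain terminator of viral polymerases, had 227, 147 and 187 CPM in LPS livers, against 18.3, 9.92 and 11.7 CPM in control livers (3.82, SE 0.23, adjusted p = 6.83e-09). Samhd1, a dNTP hydrolase that starves reverse transcription, had 217, 170 and 242 CPM in LPS livers, against 18.3, 16.2 and 18.3 CPM in control livers (3.58, SE 0.16, adjusted p = 4.98e-10). Both genes were more than 8-fold higher, and no LPS liver came near a control liver. Isg20, an RNA exonuclease, stood at 8.47 ± 0.921 CPM in LPS livers and 2.00 ± 0.135 CPM in control livers (SD, n = 3 each; 2.08, SE 0.26). Eif2ak2 (PKR), the kinase that stops translation on double-stranded RNA, stood at 28.6 ± 2.53 CPM in LPS livers and 12.3 ± 2.00 CPM in control livers (1.22, SE 0.16). Adar, which edits double-stranded RNA and so keeps PKR and MDA5 from responding to the cell's own transcripts, rose least of the 6, with 24.3 ± 2.08 CPM in LPS livers and 13.2 ± 4.57 CPM in control livers (0.90, SE 0.21, adjusted p = 0.00218). Exons of Adar overlap those of Chrnb2 on the opposite strand over 1365 bases, and the sources used here do not give the strand setting of the counting. In 13 of the 34 genes exons overlap those of another annotated gene. The share of exon length was largest in Adar (16.8%), Ifi35 (16.8%), Rtp4 (13.9%) and Herc6 (13.7%).

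Cmpk2, a mitochondrial kinase of nucleotide monophosphates and the sixth of this group, is the neighbour of Rsad2 on chromosome 12 and is transcribed away from it. It had 16.0, 9.84 and 14.7 CPM in LPS livers, against 5.77, 5.74 and 6.28 CPM in control livers (1.19, SE 0.22, adjusted p = 3.62e-04). The neighbours therefore rose by unlike amounts. For each count of Cmpk2 there were 14.2, 14.9 and 12.7 counts of Rsad2 in LPS livers, against 3.18, 1.73 and 1.87 in control livers. This within-library ratio does not depend on the scaling between libraries, and its groups did not overlap, with a difference of 2.68 in mean log2 ratio. The exact two-sided permutation test gave p = 0.10, the smallest that 3 against 3 livers allow, and 0.10 after Benjamini-Hochberg adjustment over the 2 ratios computed, a pair of ratios chosen after the values were seen.

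**Figure D2:**
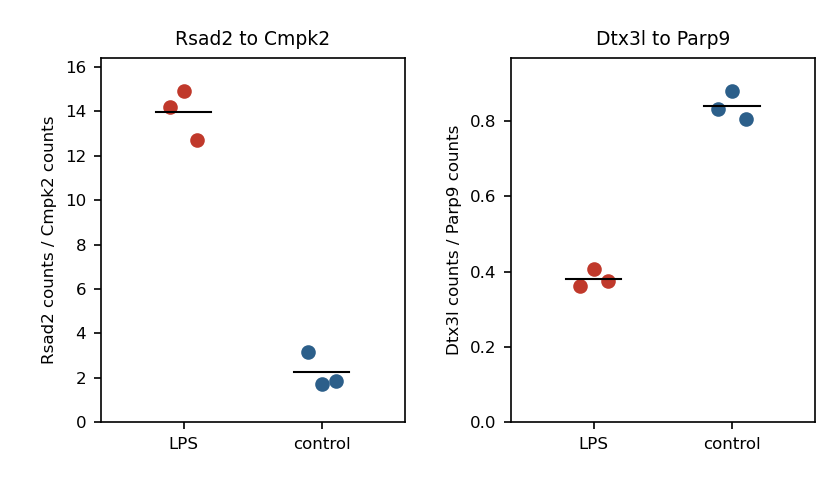
Counts of Rsad2 per count of Cmpk2 (left panel) and of Dtx3l per count of Parp9 (right panel) in each LPS and control liver, with horizontal lines at the group means. Rsad2 to Cmpk2 is 12.7 to 14.9 in LPS livers and 1.73 to 3.18 in control livers, and Dtx3l to Parp9 is 0.362 to 0.407 in LPS livers and 0.805 to 0.879 in control livers.

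Of the 4 RNA sensors 3 rose. Dhx58 (LGP2), a helicase without signalling domains that tunes the other sensors, rose most, with 36.5, 25.0 and 45.9 CPM in LPS livers against 9.27, 5.93 and 9.42 CPM in control livers (2.14, SE 0.23, adjusted p = 2.78e-06). Ifih1 (MDA5), the sensor of long double-stranded RNA, had 54.6, 55.2 and 82.8 CPM in LPS livers, against 22.4, 15.4 and 19.3 CPM in control livers (1.76, SE 0.18, adjusted p = 1.97e-06). Ddx58 (RIG-I), the sensor of short RNA with a triphosphate end, had 33.7, 30.8 and 35.6 CPM in LPS livers, against 25.6, 18.5 and 15.4 CPM in control livers (0.76, SE 0.17, adjusted p = 0.00171). Its groups were separate but close, with control replicate 1 just below the lowest LPS liver. Ddx60, a helicase described as a helper of RIG-I, had 7.16, 4.78 and 5.84 CPM in LPS livers and 5.45, 2.24 and 2.95 CPM in control livers (0.76, SE 0.34, adjusted p = 0.0653). Its fold change was close to that of Ddx58, its error was larger, and control replicate 1 lay among the LPS livers. Without that library Ddx60 passed the threshold (1.19, adjusted p = 0.00818).

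The 8 ubiquitin ligases, ADP-ribosyltransferases and related enzymes had the lowest median log2 fold change of the 6 role groups (1.09) and the only fall; 6 of them rose. Trim30a, a mouse TRIM protein known to damp Toll-like receptor signalling, rose most, with 38.5, 37.5 and 31.1 CPM in LPS livers against 7.64, 7.19 and 7.43 CPM in control livers (2.27, SE 0.15). It has close copies in its own gene cluster, so reads could be split between them. Trim21, a cytosolic receptor of antibody-coated virus, stood at 11.6 ± 1.13 CPM in LPS livers and 4.38 ± 0.426 CPM in control livers (1.40, SE 0.21). The ADP-ribosyltransferases Parp12 (1.40, SE 0.14) and Parp14 (1.11, SE 0.16) and the giant ligase Rnf213 (1.07, SE 0.18) rose as well, with 64.3 ± 8.20, 59.7 ± 5.40 and 96.2 ± 9.90 CPM in LPS livers and 24.5 ± 2.47, 27.7 ± 5.83 and 46.1 ± 14.6 CPM in control livers. Trim25, the ligase that acts on RIG-I, was already abundant in control livers. It had 176, 169 and 167 CPM in LPS livers and 135, 160 and 135 CPM in control livers (0.25, SE 0.12, adjusted p = 0.0827). Its groups did not overlap after TMM scaling but did by library totals, and the difference did not pass the threshold under either.

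Parp9 and Dtx3l went opposite ways although they are a head-to-head pair on chromosome 16 whose proteins form 1 complex, an ADP-ribosyltransferase and a ubiquitin ligase that work together in interferon signalling and DNA repair. Parp9 (35938470 to 35972605) had 79.1, 73.1 and 97.6 CPM in LPS livers, against 57, 53.2 and 53.1 CPM in control livers (0.61, SE 0.13, adjusted p = 0.00113). Dtx3l (35926511 to 35939151) had 28.6, 29.8 and 36.6 CPM in LPS livers, against 47.3, 46.8 and 42.7 CPM in control livers (-0.52, SE 0.13, adjusted p = 0.00331). Both genes thus separated the groups, in opposite directions. Dtx3l stayed called lower in all 12 alternative settings, with log2 fold changes from -0.63 to -0.48. For each count of Parp9 there were 0.362, 0.407 and 0.375 counts of Dtx3l in LPS livers, against 0.830, 0.879 and 0.805 in control livers. The difference in mean log2 ratio was -1.14, with the same smallest possible exact permutation p of 0.10. Their exons overlap by 458 bases at the 5′ ends, on opposite strands, and without the strand setting it cannot be said to which gene reads of that stretch were counted.

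**Figure D3:**
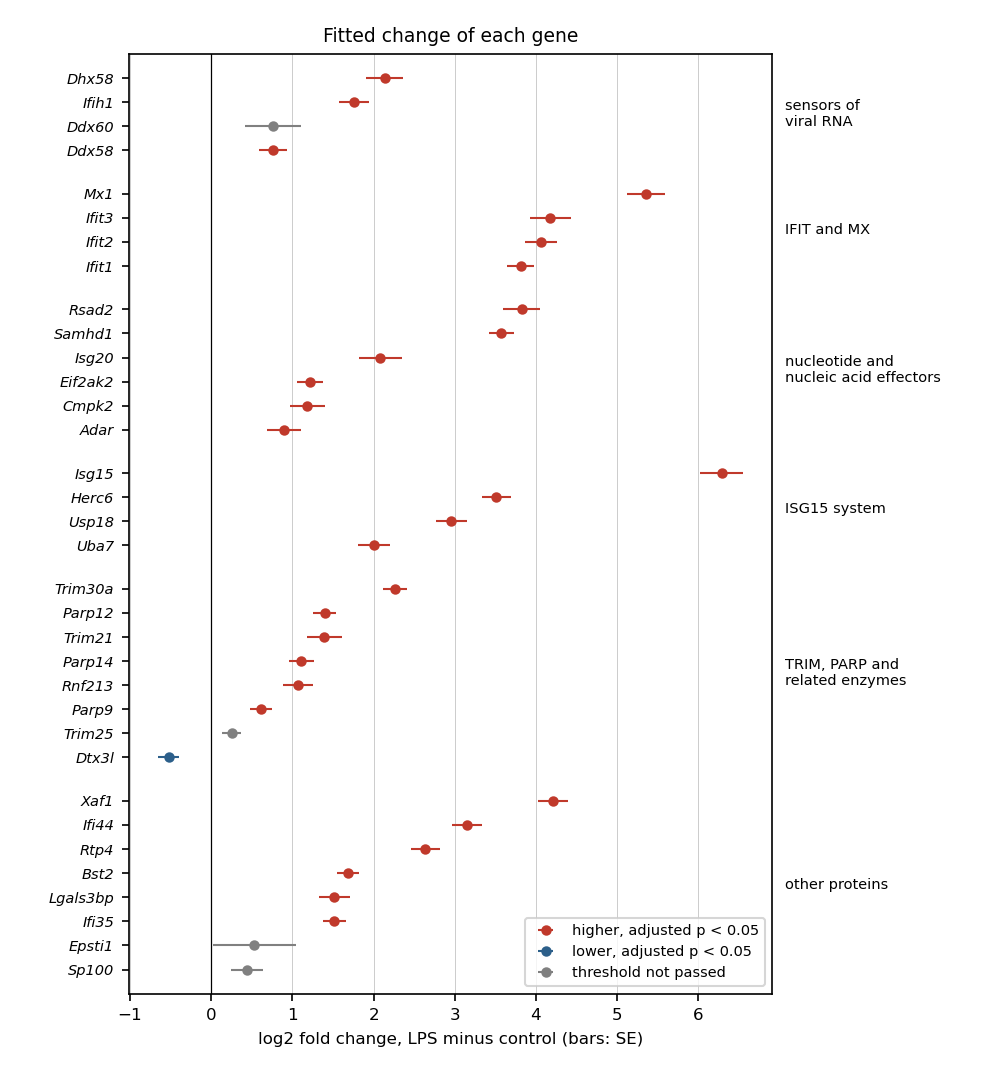
Fitted log2 fold change (LPS minus control) of each of the 34 genes with its standard error, grouped by role. Isg15 (6.29) and Mx1 (5.35) are farthest to the right, Dtx3l (-0.52) is the only gene called lower, and Ddx60, Trim25, Epsti1 and Sp100 in grey did not pass the threshold.

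Of the remaining 8 genes 6 rose. Xaf1, an interferon-induced partner of the apoptosis inhibitor XIAP, had 83.3, 72.7 and 84.9 CPM in LPS livers, against 5.84, 3.45 and 3.97 CPM in control livers (4.21, SE 0.18, adjusted p = 4.68e-10). Ifi44 stood at 35.1 ± 4.66 CPM in LPS livers and 4.01 ± 0.701 CPM in control livers (3.15, SE 0.18), and Rtp4, a receptor-transporting protein, at 49.0 ± 10.9 CPM in LPS livers and 7.86 ± 0.788 CPM in control livers (2.64, SE 0.18). Bst2 (tetherin; chromosome 8, 71534255 to 71537456), which holds budding virus at the cell surface, was abundant in both groups, with 399, 336 and 374 CPM in LPS livers against 133, 108 and 104 CPM in control livers (1.69, SE 0.14). Lgals3bp, a secreted galectin-binding glycoprotein, had 177, 164 and 283 CPM in LPS livers, against 80.6, 61.6 and 75.6 CPM in control livers (1.52, SE 0.19), and Ifi35 rose by the same amount (1.52, SE 0.14). LPS replicate 3 stood well above the other LPS livers in Lgals3bp, whereas the LPS values of Ifi35 lay within 42.3 to 43.9 CPM. Sp100, a protein of nuclear bodies, stood at 12.7 ± 2.11 CPM in LPS livers and 9.40 ± 1.12 CPM in control livers (0.44, SE 0.20, adjusted p = 0.0669). Without LPS replicate 3 it passed the threshold (0.58, adjusted p = 0.0254). Epsti1 was close to the level of the filter, with 1.70, 1.55 and 1.5 CPM in LPS livers and 0.467, 0.972 and 1.79 CPM in control livers (0.53, SE 0.51, adjusted p = 0.378).

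Levels of the 34 genes were compared with each other as CPM per kilobase of merged GENCODE exons, which understates a gene whose annotation holds long minor isoforms. On this scale Isg15 led in LPS livers, at 461 ± 136 (SD, n = 3), and held place 8 of 34 in control livers, at 5.98 ± 1.34. Bst2 was next in LPS livers, at 410 ± 35.1, within the spread of Isg15, and led in control livers at 127 ± 17.4. Lgals3bp came after them in LPS livers (73.0 ± 22.9 per kilobase) and was second in control livers (25.5 ± 3.45), so these 2 genes were among the most abundant in both groups. Trim25 was at place 7 in LPS livers, at 29.7 ± 0.762, and at place 3 in control livers, at 24.9 ± 2.51. Mx1 was at place 12 in LPS livers (19.8 ± 5.58) and 32 in control livers (0.492 ± 0.0811), and Dtx3l was at place 25 in LPS livers (5.53 ± 0.753) and 6 in control livers (7.97 ± 0.437).

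**Figure D4:**
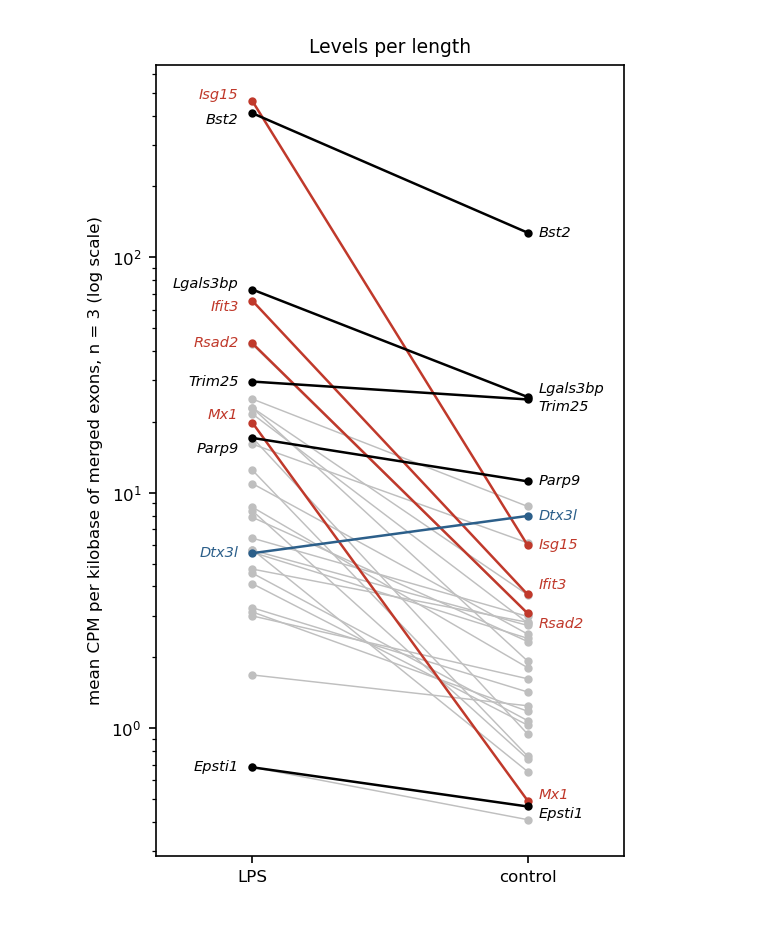
Mean CPM per kilobase of merged exons of the 34 genes in LPS livers (left) and control livers (right), joined by a line per gene, on a log axis. Isg15 climbs past Bst2 in LPS livers (461 against 410 per kilobase), and Dtx3l is the only line that is lower on the LPS side.

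The coefficient of variation between livers of a group ran from 1.87% (Ifi35) to 31.3% (Lgals3bp) in LPS livers, with a median of 12.6%, and from 2.97% (Trim30a) to 62.1% (Epsti1) in control livers, with a median of 17%. Summed over the 34 genes, the level was 2938, 2403 and 3147 CPM in LPS livers, against 825, 696 and 709 CPM in control livers, a 3.81-fold difference of means, or 0.300%, 0.241% and 0.286% of all counts in LPS livers, against 0.0842%, 0.0706% and 0.0735% in control livers. LPS replicate 2 was the highest of its group in 2 of the 34 genes, replicate 3 in 22 and replicate 1 in 10. With library totals as the only scaling replicate 1 led in 19, replicate 3 in 12 and replicate 2 in 3. Which of replicates 1 and 3 was higher therefore depended on the scaling, while replicate 2 was seldom highest under either. In the control group replicate 1 was highest in 23 genes, and in 21 by library totals.

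The genes around this set were taken from lists of the interferon pathway. Counts of these lists stand beside 31.3% of all tested genes called higher and 31.0% called lower, and no list was tested against these shares. Of 20 interferon ligand genes 17 had no count in any liver, where 3 counts would stand for 0.211 to 0.256 CPM in LPS livers and 0.146 to 0.234 CPM in control livers, and 0 passed the filter. Ifnb1 had 2 counts in LPS replicate 1 and 0 in every other liver. Ifng had 2 counts in each LPS liver, against 0, 2 and 0 in control livers, and Ifnk had 0, 4 and 0 counts in LPS livers, against 2, 0 and 0 in control livers. Low counts in these tables were mostly even numbers, so a count of 2 may be 1 read pair, and a difference in ligand RNA was not detectable at this depth.

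Among 5 tested interferon receptor genes, the median change was 0.29 on the log2 scale. Of these genes 2 rose and 1 fell, where 31.3% of all tested genes rose and 31.0% fell. The type I receptor chains went opposite ways. Ifnar1 stood at 51.1 ± 1.87 CPM in LPS livers and 33.7 ± 1.57 CPM in control livers (0.60, SE 0.12), and Ifnar2 at 25.1 ± 4.04 CPM in LPS livers and 35.4 ± 3.08 CPM in control livers (-0.49, SE 0.14, adjusted p = 0.00841). The interferon gamma receptor chains Ifngr1 (0.29, SE 0.16, adjusted p = 0.118) and Ifngr2 (0.16, SE 0.14, adjusted p = 0.341) did not pass the threshold. Ifnlr1, a chain of the interferon lambda receptor, had 2, 4 and 6 counts in LPS livers, against 0, 4 and 0 in control livers, and did not pass the filter. Il10rb, the other chain of that receptor, rose (0.66, SE 0.27, adjusted p = 0.0457), and the count of receptor genes that rose was 1 without LPS replicate 1, LPS replicate 2, LPS replicate 3, control replicate 1 or control replicate 3, by library totals, without the filter, in DESeq2 and with the replicate block.

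Of the 12 genes of the JAK, STAT and IRF chain 8 rose and 2 fell, with a median of 0.67. Irf7, the factor that amplifies interferon production, rose most and had the highest mean CPM of the list over all 6 livers, at 352 ± 43.6 CPM in LPS livers and 32.8 ± 6.03 CPM in control livers (3.43, SE 0.17). Irf3, the constitutive factor downstream of TRIF and MAVS, fell most, to 15.5 ± 2.11 CPM in LPS livers, against 52.5 ± 11.3 CPM in control livers (-1.75, SE 0.17, adjusted p = 1.04e-06). The other faller was the kinase Tyk2 (-0.56, SE 0.18, adjusted p = 0.0178), named after its value was seen, and only 1 gene of this list fell without LPS replicate 1, control replicate 1 or control replicate 3.

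Of 8 tested sensor adaptors and kinases 6 rose and 1 fell, with a median of 1.05. The faller was Mavs, the mitochondrial adaptor that RIG-I and MDA5 signal through, with 28.4, 27.3 and 27.9 CPM in LPS livers, against 114, 88.7 and 109 CPM in control livers (-1.90, SE 0.13, adjusted p = 3.47e-08). Ifih1 and Ddx58, which encode these sensors, rose in the same livers. The kinase Ikbke rose most (2.04, SE 0.19). All 8 tested brakes of interferon signalling passed the threshold, 6 of them higher and 2 lower, with a median of 0.67. Socs1, the inhibitor of JAK kinases, stood at 105 ± 3.16 CPM in LPS livers and 0.592 ± 0.339 CPM in control livers (7.50, SE 0.23). The phosphatase Ptpn11, with the highest mean CPM over all 6 livers, rose (0.66, SE 0.13), and Irf2bp1, a corepressor that binds IRF2, fell most (-0.80, SE 0.15).

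Further interferon-stimulated genes were followed in 3 lists. All 8 tested genes of the OAS family and RNase L, the latter an enzyme that degrades viral RNA, rose, with a median of 3.17. Oas1a rose most (3.76, SE 0.18), and Oasl1 had the highest mean CPM over all 6 livers (86.4 ± 16.5 CPM in LPS livers and 9.25 ± 4.85 CPM in control livers). Of 20 other antiviral interferon-stimulated genes 14 rose and 0 fell at the edgeR threshold, with a median of 1.22. The highest in mean CPM over all 6 livers, Ifitm3, which blocks fusion of virus with endosomes, stood at 946 ± 156 CPM in LPS livers and 181 ± 36.3 CPM in control livers (2.39, SE 0.17), and Zbp1 rose most (4.67, SE 0.19). Of 13 tested genes known for a strong response to interferon gamma 12 rose and 0 fell, with a median of 2.87 and with Cxcl9 (8.48, SE 0.20) both the largest rise and the highest mean CPM over all 6 livers. These medians stand beside 1.72 for the 34 genes and 0.01 for all tested genes, and no difference between the lists was tested.

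**Figure D5:**
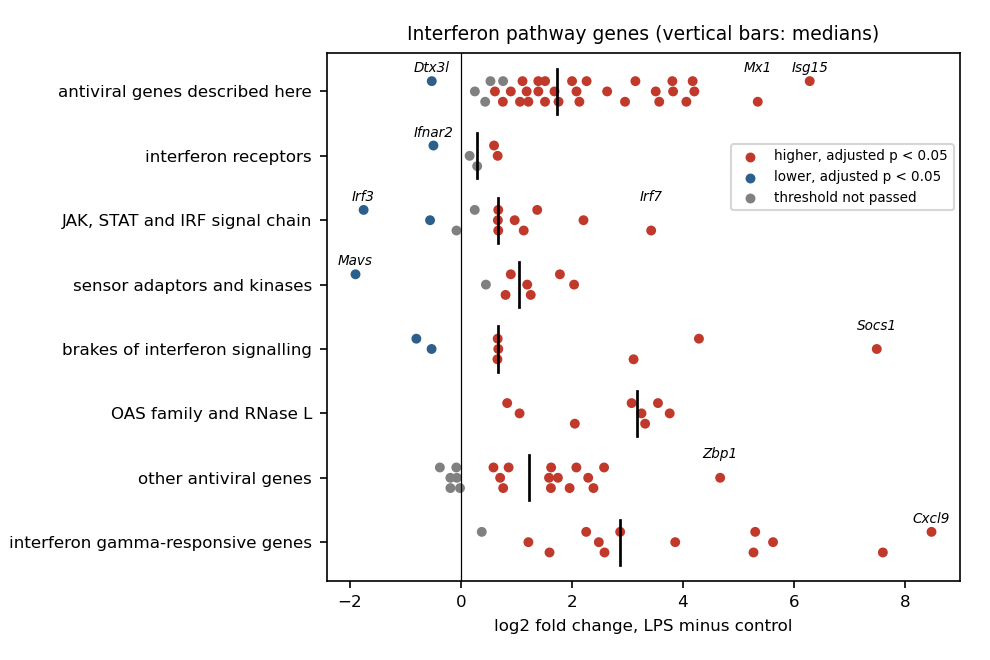
Log2 fold change (LPS minus control) of each tested gene in 8 lists, with a vertical bar at each list's median and colour for the call at an adjusted p of 0.05. The 34 antiviral genes (top row, median 1.72) spread from Dtx3l (-0.52) to Isg15 (6.29), while Mavs (-1.90), Irf3 (-1.75) and Ifnar2 (-0.49) lie left of 0 in the signalling lists.

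Markers of cell types were counted in the same livers, where 31.3% of all tested genes were called higher and 31.0% lower. No marker list was tested against these shares. Hepatocyte markers were abundant in every library, led by Alb, with 8 of 10 lower and 1 higher and summed levels of 74934 to 102272 CPM in LPS livers and 118941 to 132587 CPM in control livers. Of 9 tested neutrophil markers all 9 were higher, with sums of 219 to 267 CPM in LPS livers and 5.45 to 8.60 CPM in control livers, led in LPS livers by S100a9, and 4 of 5 tested monocyte markers were higher, with 55.3 to 71.3 CPM in LPS livers and 5.30 to 9.43 CPM in control livers, led by Plac8 in both groups. Of 8 Kupffer cell markers 7 were lower and 1 higher, with sums of 73.0 to 120 CPM in LPS livers and 279 to 318 CPM in control livers. Clec4f was the highest of them in control livers (15.6 ± 8.32 CPM in LPS livers and 87.9 ± 6.65 CPM in control livers), and Marco, the 1 that rose, was the highest in LPS livers (31.7 ± 6.29 CPM in LPS livers and 13.5 ± 6.85 CPM in control livers). Of 5 markers of plasmacytoid dendritic cells, a type known for its interferon output and for Bst2 on its surface, 0 passed the filter. They summed to 0.170 to 0.703 CPM in LPS livers and 1.26 to 1.56 CPM in control livers. Klk1 was at 0 in all LPS livers and had 0, 6 and 0 counts in control livers. Of 4 tested T and NK cell markers 1 was higher, 0 were lower and 3 did not pass the threshold. The sums over all 8 listed were 6.91 to 7.50 CPM in LPS livers and 2.24 to 5.14 CPM in control livers. Of 4 tested B cell markers 2 were lower and 0 higher, of 7 sinusoidal endothelial markers 4 were lower and 1 higher, of 6 stellate cell markers 3 were lower and 1 higher, and of 4 tested cholangiocyte markers 3 were higher and 1 lower. The part of these cells in the changes of the antiviral genes was not tested.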

How the data were processed

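RNA of 6 whole livers, 3 LPS and 3 control, was extracted with Trizol, per the labels' protocols. The submitters' processing notes name bcl2fastq 2.0, HISAT2, StringTie, DESeq2, limma and the build mm10, with no roles. The authors deposited raw counts per gene, with no normalization. The counting tool, its annotation, the strand setting and the handling of multi-mapped reads are not given in the sources used here. Lines were named by Entrez identifier (20722), by complete symbol (879) or as deposited (887). Between 84.1% and 86.7% of counts from 1 to 50 were even, against 50.7% to 51.8% of counts over 200, so low counts are not independent molecules, and floors cover counting error only.

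LPS was compared with control in R 4.3.3 with edgeR 4.0.16 (TMM scaling, filterByExpr with minimum count 10, quasi-likelihood F test, two-sided, Benjamini-Hochberg over all 12078 genes, threshold 0.05). Fold changes are LPS over control, and SE is the absolute log2 fold change over the square root of F. Between libraries of a group the chi-square per degree of freedom was 12.0 to 32.9, so none was a copy or a plain re-sequencing of another library. This value cannot tell separate mice from separate preparations of the same liver. The fit was tested on simulated data. Gene positions and exon lengths are from GENCODE M21 (GRCm38) and promoter sequences from RefSeq (GRCm38.p6). CPM here are counts per 1000000 counts of the TMM-scaled library size. The 35 genes and the lists were chosen with earlier results of these data known. The text names all 35 genes and, of each pathway list, the largest rise, the largest fall and the gene with the highest mean CPM over all 6 livers, with all genes of the receptor list. Orders by CPM within the pathway and marker lists are not corrected for gene length. Alternatives were other scalings, no filter, DESeq2 1.42.0, a replicate block, each library left out, and, chosen after seeing the data, halved counts.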

Additional observations from a re-analysis of the deposited data

How the results depend on the processing

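Across 12 alternative settings the direction of each of the 34 genes was kept, and 32 genes kept the same call and direction in every setting; the exceptions, Ddx60 and Sp100, passed the threshold in some. Ddx60 did so without the filter on low counts (0.73, adjusted p = 0.0464), with halved counts (0.79, adjusted p = 0.0482), with the replicate block (0.81, adjusted p = 0.0267) and without control replicate 1 (1.19), and its adjusted p reached at most 0.256 in the others. The number of the 34 genes that rose was 29 or 30 in every setting, and 1 fell. Between 24 and 28 rose at least 2-fold when a library was left out. Groups did not overlap in 31 to 33 genes with a library left out and in 30 by library totals, by which Trim25 and Sp100 overlapped too. Counts over all genes kept within 1.5 times, at 3372 to 3635 higher and 3510 to 3615 lower with a library left out.

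Titles number the libraries as repeat experiments 1 to 3 in either group, without saying that an LPS and a control liver of the same number were handled together. Deviations from the group means correlated at -7.448e-04, 0.104 and 0.0352 for equal numbers and at -0.121 to 0.0741 for unequal ones. Deviations within a group cancel out, so these values are bound together and cannot decide on pairing. The numbers were not taken as pairs because no label says that they are. With the replicate block 30 of the 34 genes rose and 1 fell. Depth limits what can be said of the interferon ligand genes, which had at most 4 counts in any liver.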
